A study of Danio rerio with 6 samples.

Results

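The genes described here encode the proteins that start and extend polypeptides on cytosolic ribosomes, together with genes of the same symbol prefix whose products regulate them. They were taken by symbol from a table that pairs the Ensembl gene IDs of the count files with names: all IDs whose symbol begins with eif and a digit, with eef1 or with eef2. The rule found 84 of 32520 IDs, under 77 different symbols, and used no measured value. It was, however, chosen with earlier results of these data known. The study used embryos of the zebrafish, Danio rerio, at 20 h after fertilization: blood progenitors were freed with Liberase, sorted by flow cytometry for red fluorescent protein (RFP) and sequenced as bulk RNA, with 30000 cells behind each library. There were 3 libraries from blf-/-;drl 4KO embryos, which are mutant for the zinc finger gene blf and for the related draculin (drl) genes, and 3 control libraries. The sample labels give the genotype of the controls as blf-/-, whereas the design text of the series gives blf+/-. In both groups RFP is driven from a gene-trap allele of blf, so the sort itself reads the blf locus. The labels do not say whether a library was made from 1 clutch or from pooled embryos, so the p-values measure the spread between these libraries, which may be technical.

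Protein synthesis begins when eIF2, bound to GTP, brings the initiator tRNA to the small ribosomal subunit together with eIF1, eIF1A, eIF3 and eIF5. The cap-binding eIF4E, the scaffold eIF4G and the helicase eIF4A load this complex on the mRNA, eIF5B joins the large subunit, and eEF1A and eEF2 then carry out elongation. Red cell precursors are a textbook case of its control, since a kinase that senses heme, encoded by eif2ak1, phosphorylates eIF2 and slows globin synthesis when heme is short.

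Total counts ranged from 14063972 to 18101975 in the blf-/-;drl 4KO libraries, against 12751618 to 14202026 in the control libraries. The targeted genes were checked first: drl had 7 reads in all over the 3 blf-/-;drl 4KO libraries, against 21322 in the controls, and blf averaged 81.2 CPM in the mutant and 2644 CPM in the control libraries, where CPM are counts per 1000000 reads of a library, scaled for library composition. Of 9 tested red cell markers 8 were lower in the blf-/-;drl 4KO libraries, where their summed level was 10094 to 13625 CPM, against 82208 to 105639 CPM in the controls. Markers of other cells were higher: 5 of 6 tested myeloid genes (summed level 1806 to 2291 CPM in blf-/-;drl 4KO against 476 to 589 CPM in control libraries), 5 of 6 endothelial genes (468 to 528 against 90.7 to 148 CPM), 6 of 7 epidermal genes (1624 to 2342 against 139.7 to 175 CPM), 1 of 5 muscle genes (1844 to 4285 against 333 to 1319.6 CPM) and 2 of 4 neural genes (48.9 to 89.3 against 5.18 to 25.2 CPM). By the test described below, 9.92% of all genes tested were lower and 13.0% higher, so the muscle count is near the share of all genes. The neural gene NEUROD4 was left out by the filter, and most of its reads were in control replicate 2. No matched marker was at 0 in every library of a group. The part of this change in cell makeup in the results on translation genes was not tested, and in such bulk samples fewer cells of a type and less RNA per cell cannot be told apart.

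Most translation factor genes were lower in the blf-/-;drl 4KO cells. Of the 84 genes, 76 had enough reads to be tested, each with at least 10 reads in all 6 libraries. Of these, 41 fell and 2 rose at an adjusted p under 0.05 (edgeR's quasi-likelihood test, Benjamini-Hochberg adjustment over all 14517 genes tested), and 33 did not pass. Over all genes tested, 22.9% passed, 9.92% as falls and 13.0% as rises. Their median log2 fold change was -0.91, beside 0.11 for all genes tested. On the log2 scale 45 of the 76 genes (59.2%) changed by less than 1, beside 48.8% of all genes tested. The median absolute log2 fold change was 0.94 for the members and 1.03 for all genes tested. In 51 of the 76 genes every blf-/-;drl 4KO library lay below every control library, and in 3 every one lay above, beside 19.8% and 22.7% of all genes tested. Of the 41 genes that fell, 39 encode factors, and no tested factor gene rose, although EIF1 did so with scaling to library totals. The 2 that rose, eif4ebp1 and EEF2K, encode inhibitors of translation, and so do the 2 regulator genes that fell, eif2ak1 and EIF4EBP3. The EEF2K call was lost when any 1 control library was left out.

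**Figure D1:**
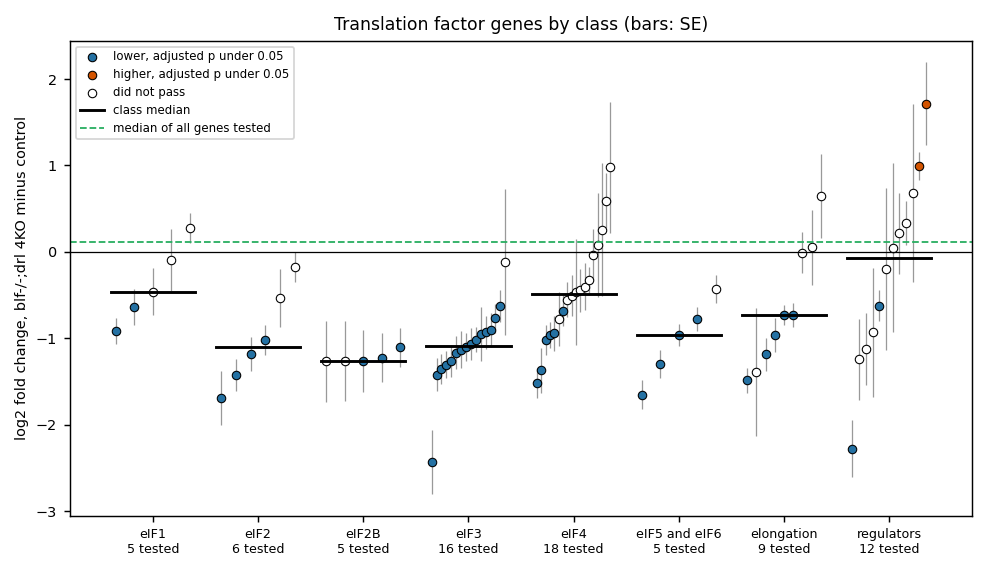
Log2 fold change (vertical axis, blf-/-;drl 4KO minus control) of the 76 tested genes by class, with the SE as a bar, the class median as a black line and the median of all genes tested as a dashed line. The class median was -1.26 for eIF2B and -0.07 for the regulators. In the eIF3 class 15 of 16 tested genes were lower, beside 9.92% of all genes tested and 31.4% of those with a mean of at least 50 CPM.

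Most of the calls were of genes with more reads. Of 55 members with a mean of at least 50 CPM over the 6 libraries, 40 fell and 1 rose, whereas of all 2863 tested genes at that level 31.4% fell and 22.6% rose. Of the 21 members under 50 CPM, 1 fell and 1 rose, beside 4.65% and 10.6% of all 11654 tested genes at that level, and 9 had fold changes above 0. Together the 84 genes took 2.60%, 2.66% and 2.31% of all counts in blf-/-;drl 4KO replicates 1, 2 and 3, against 3.44%, 3.74% and 3.73% in control replicates 1, 2 and 3. The groups did not overlap. Globin reads took up 18.9% of the control counts and 4.47% of the blf-/-;drl 4KO counts. With globins left out of the totals, the share was 2.64% ± 0.173 in the blf-/-;drl 4KO libraries and 4.49% ± 0.272 in the controls (SD, n = 3 each).

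**Figure D2:**
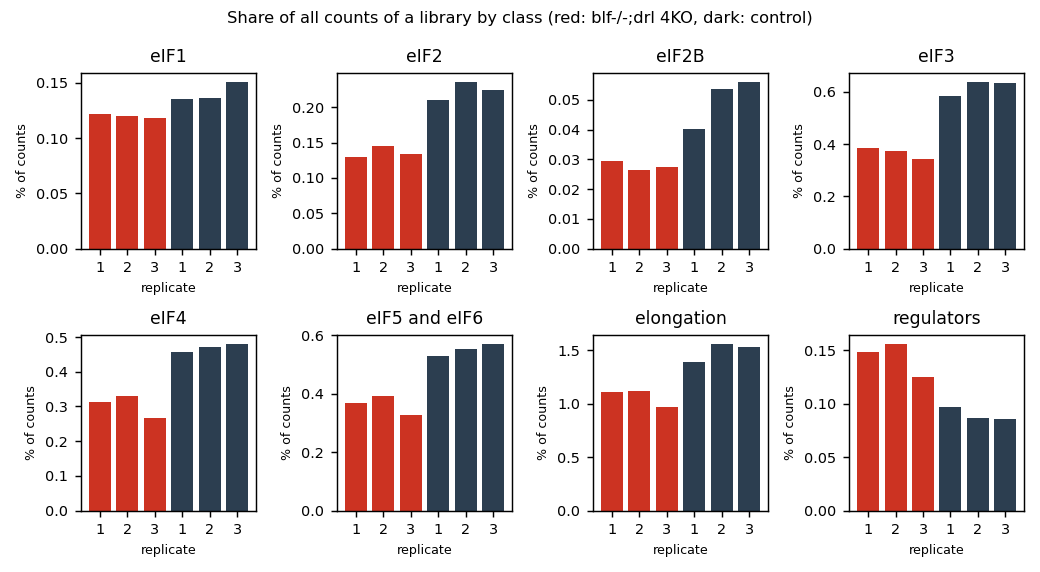
Share of all counts of a library (vertical axes, percent) taken by each class, one bar for each of the 3 blf-/-;drl 4KO and 3 control libraries. Every class but the regulators took a smaller share in each blf-/-;drl 4KO library than in any control library, and the regulators took 0.125% to 0.156% against 0.0852% to 0.0966%. The regulator share leans on 1 gene, eif4ebp1, which had the most reads of that class. It had 18019, 14689 and 10663 reads in the blf-/-;drl 4KO libraries and 5914, 5215 and 3941 in the controls. The higher share is therefore not a trait of the class as a whole.

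Other genes of protein synthesis were counted in the same fit. Of 80 tested genes with symbols of cytosolic ribosomal proteins 71 fell and 1 rose (median log2 fold change -0.80), and of 19 aminoacyl-tRNA synthetase genes 7 fell and none rose (median -0.72), beside 9.92% and 13.0% of all genes. Neither group was matched for level, and of all tested genes with a mean of at least 50 CPM 31.4% fell and 22.6% rose. No test of a difference between these groups of genes was made.

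Of the small factors of start codon selection, 2 of 5 tested genes were lower and none higher (median log2 fold change -0.46). Of all genes tested 9.92% were lower and 13.0% higher, so counts this small do not set the class apart. With any 1 library left out 1 gene was lower. With library totals 1 was lower and 1 higher (median -0.15). eif1axb (ENSDARG00000057912), which encodes eIF1A, a factor of scanning on the small subunit, was at 501, 535 and 445 CPM in blf-/-;drl 4KO replicates 1, 2 and 3, against 837, 882 and 1072 CPM in control replicates 1, 2 and 3. Every blf-/-;drl 4KO library was below every control library (log2 fold change -0.91, SE 0.15, adjusted p = 0.00165, edgeR). Its copy eif1axa (ENSDARG00000029003) was at 148, 113 and 242 CPM in blf-/-;drl 4KO and 190.2, 262 and 242 CPM in control libraries and did not pass (adjusted p = 0.249, edgeR). The 2 genes of eIF1, which guards against wrong start codons, lay on opposite sides of 0. EIF1B (ENSDARG00000029445) was at 92.1, 87.3 and 95.4 CPM in blf-/-;drl 4KO libraries and 136, 142 and 150.1 CPM in the controls (log2 fold change -0.64, SE 0.20, adjusted p = 0.0433, edgeR). Its groups were apart, but its call was the weakest of the class: the adjusted p was 0.052 to 0.132 when any 1 of the 6 libraries was left out, and 0.265 with scaling to library totals. EIF1 (ENSDARG00000012688) was at 321, 263 and 275 CPM in blf-/-;drl 4KO libraries and 207, 246 and 257 CPM in the controls. All of its blf-/-;drl 4KO values were the higher ones, yet it passed only with scaling to library totals (log2 fold change 0.60, adjusted p = 0.0165), not in the test used here (0.28, SE 0.18, adjusted p = 0.293, edgeR). EIF1AD, the fifth member, encodes a protein with an eIF1A domain that is not a known initiation factor, and was at a mean of 41.4 CPM in blf-/-;drl 4KO and 44.3 CPM in control cells.

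All subunits of eIF2, the GTP-binding carrier of the initiator tRNA, had a gene that fell. In the class 4 of 6 tested genes fell and none rose, beside 9.92% and 13.0% of all genes tested. Of those with a mean of at least 50 CPM 31.4% fell and 22.6% rose, and the class was not matched for level. EIF2S2 (ENSDARG00000053047), for the beta subunit, was at 326, 367 and 242 CPM in blf-/-;drl 4KO libraries and 716, 883 and 916 CPM in the controls (log2 fold change -1.43, SE 0.19, adjusted p = 0.000318, edgeR). The lowest control was at 1.95 times the highest blf-/-;drl 4KO library. EIF2S3B (ENSDARG00000008292), the symbol given to the gamma subunit gene, was at 278, 228 and 328 CPM against 527, 572 and 591 CPM in controls (log2 fold change -1.02, SE 0.17, adjusted p = 0.00182, edgeR). The alpha subunit, whose phosphorylation slows initiation, has 2 genes, both listed as EIF2S1. One (ENSDARG00000052178) was at 241, 268 and 286 CPM in blf-/-;drl 4KO libraries against 452, 747 and 609 CPM in the controls (log2 fold change -1.18, SE 0.20, adjusted p = 0.00152, edgeR). The other (ENSDARG00000005827) was at 246, 302 and 310.0 CPM against 319, 354 and 296 CPM, with overlapping groups, and did not pass (-0.18, SE 0.17). Outside the complex but with the same prefix, EIF2A (ENSDARG00000101061), for a separate protein that can also bind initiator tRNA, averaged 39.6 ± 15.5 CPM in blf-/-;drl 4KO and 128 ± 11.9 CPM in control cells (SD, n = 3 each; log2 fold change -1.69, SE 0.32, adjusted p = 0.00314, edgeR). EIF2D, for a factor of reinitiation and recycling, was at a mean of 44.0 CPM against 63.6 CPM and did not pass.

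The 5 genes of eIF2B, the exchange factor that recharges eIF2 with GTP, had closely similar fold changes, between -1.27 and -1.11 on the log2 scale, and in all 5 every blf-/-;drl 4KO library was below every control library. The groups lay apart in this direction in 19.8% of all genes tested. Of the 5 genes, 3 passed the test as lower, beside 9.92% of all genes tested. EIF2B1 (ENSDARG00000091402), for the alpha subunit, was at 152, 138 and 113 CPM in blf-/-;drl 4KO libraries, against 205, 325 and 342 CPM in the controls (log2 fold change -1.11, SE 0.23, adjusted p = 0.00575, edgeR). EIF2B2 (ENSDARG00000041397) was at 38.6, 34.2 and 46.3 CPM against 89.8, 114 and 74.7 CPM (log2 fold change -1.22, SE 0.28, adjusted p = 0.01, edgeR). EIF2B4 (ENSDARG00000014004) was at 32.6, 34.6 and 39.9 CPM against 44.9, 107 and 105 CPM, the lowest control being close to the highest blf-/-;drl 4KO library (log2 fold change -1.26, SE 0.36, adjusted p = 0.0263, edgeR). EIF2B3 and EIF2B5, for the subunits of the catalytic part, averaged 22.8 and 17.0 CPM in blf-/-;drl 4KO and 54.8 and 40.9 CPM in control cells, and missed the threshold (adjusted p = 0.0765 and 0.0728, edgeR), but passed with DESeq2 (0.0237 and 0.015). Without control replicate 2 only EIF2B1 remained past the threshold, with EIF2B2 at adjusted p = 0.0662 and EIF2B4 at 0.136 (edgeR); EIF2B4 was also at 0.0587 to 0.103 without control replicate 3 or any 1 blf-/-;drl 4KO library.

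eIF3, the large scaffold that holds the small subunit, the tRNA and the mRNA together, was lower in nearly all of its genes. Of 16 tested genes 15 fell and none rose (median log2 fold change -1.09), and in those 15 the groups did not overlap. Among all genes tested 9.92% fell, 13.0% rose and 19.8% lay below the controls without overlap. Of those with a mean of at least 50 CPM 31.4% fell and 22.6% rose, and the class was not matched for level. EIF3G (ENSDARG00000016889), for an RNA-binding subunit, was at 242, 207 and 207 CPM in blf-/-;drl 4KO libraries, against 508, 534 and 581 CPM in the controls (log2 fold change -1.31, SE 0.16, adjusted p = 0.000195, edgeR). The gene listed as EIF3CL (ENSDARG00000016443), for the core subunit eIF3c, was at 255, 223 and 253 CPM against 500.5, 736 and 634 CPM (log2 fold change -1.36, SE 0.18, adjusted p = 0.000339, edgeR). EIF3I (ENSDARG00000017445), for a WD-repeat subunit, was at 251, 163 and 203 CPM against 500.3, 605 and 549 CPM (log2 fold change -1.42, SE 0.19, adjusted p = 0.000378, edgeR). These 3 had the smallest p of the class, and the lowest control was at 2.10, 1.96 and 1.99 times the highest blf-/-;drl 4KO library in EIF3G, EIF3CL and EIF3I. EIF3B (ENSDARG00000059654), for a core subunit and the eIF3 gene with the most reads, was at 489.5, 443 and 416 CPM against 807, 1019 and 899 CPM in controls (log2 fold change -1.01, SE 0.15, adjusted p = 0.000738, edgeR).

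The remaining eIF3 genes spread around the same size of change. For the subunit genes EIF3A, EIF3D, EIF3M, EIF3L and EIF3K, the log2 fold changes were -1.10, -1.17, -1.26, -0.91 and -1.13. EIF3F and eif3ea were lowered least among those that passed, by -0.63 (SE 0.18) and -0.77 (SE 0.17). EIF3F passed without control replicate 1 or blf-/-;drl 4KO replicate 3 and not without any other library (adjusted p = 0.0971 to 0.149, edgeR), nor with library totals (0.172). eif3ea was at adjusted p = 0.0625, 0.0555 and 0.0508 without control replicates 2 and 3 and blf-/-;drl 4KO replicate 1 (edgeR). Of the 2 genes of the loosely bound eIF3j, both listed as EIF3J, one (ENSDARG00000053370) fell by 0.93 and the other (ENSDARG00000012603) by 0.95 on the log2 scale. The call of the second was at the threshold (adjusted p = 0.0489), and left-out libraries other than control replicate 1 moved it to 0.054 to 0.244 (edgeR). The largest fold change of any tested factor gene was in the gene with fewer reads of the pair listed as EIF3H (ENSDARG00000036116). It was at 9.05, 16.1 and 15.0 CPM in blf-/-;drl 4KO libraries, against 60.8, 74.4 and 82.0 CPM in the controls (log2 fold change -2.44, SE 0.37, adjusted p = 0.000876, edgeR). The other EIF3H gene (ENSDARG00000102452) was at 159.6, 157 and 136 CPM against 267, 334 and 350.0 CPM (log2 fold change -1.07, SE 0.19, adjusted p = 0.00204, edgeR). EIF3E (ENSDARG00000002549) was the tested eIF3 gene that did not pass, at 1.51, 27.7 and 19.6 CPM in blf-/-;drl 4KO and 9.55, 17.4 and 26.2 CPM in control libraries, with an SE of 0.84.

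The cap-binding and unwinding factors of the eIF4 class were mixed. Of 18 tested genes 6 were lower, none higher and 12 not past the threshold (median log2 fold change -0.49). Of all genes tested 9.92% were lower and 13.0% higher, and of those with a mean of at least 50 CPM 31.4% and 22.6%. The class was not matched for level, and its median was -0.19 with library totals. eif4a1a (ENSDARG00000092115), for the helicase eIF4A that clears structure from the mRNA, was at 724, 866 and 555 CPM in blf-/-;drl 4KO libraries, against 1758, 2076 and 2310.1 CPM in the controls (log2 fold change -1.52, SE 0.18, adjusted p = 0.000158, edgeR). The lowest control was at 2.03 times the highest blf-/-;drl 4KO library. EIF4G1 (ENSDARG00000006200), for the scaffold, was at 389, 329 and 321 CPM against 679, 629 and 711 CPM (log2 fold change -0.96, SE 0.15, adjusted p = 0.00112, edgeR). EIF4B (ENSDARG00000010194), for a cofactor of the helicase, was at 257, 234 and 229 CPM against 427, 591 and 444 CPM (log2 fold change -1.02, SE 0.18, adjusted p = 0.00199, edgeR). The other genes that fell were eif4eb, eif4a1b and EIF4A3, a relative of eIF4A in the exon junction complex that marks spliced mRNA. eif4eb (ENSDARG00000013274), for the cap-binding protein, was at 75.1, 116 and 69.0 CPM against 169, 271 and 233 CPM (log2 fold change -1.37, SE 0.26, adjusted p = 0.00358, edgeR). eif4a1b had a log2 fold change of -0.94 and adjusted p = 0.0523 without control replicate 2 (edgeR). EIF4A3 was at -0.68, and at adjusted p = 0.0795 to 0.09 without control replicates 2 or 3 or blf-/-;drl 4KO replicate 1 (edgeR), and at 0.146 with library totals.

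The eIF4 genes that did not pass included the other cap-binding genes. eif4e1c (ENSDARG00000012274) was at 371, 314 and 367 CPM in blf-/-;drl 4KO libraries, against 414, 455 and 452 CPM in the controls, without overlap but with a difference of -0.33 (SE 0.15, adjusted p = 0.151, edgeR). EIF4E was at 91.0, 100.4 and 55.8 CPM against 121, 112 and 93.0 CPM in controls. The fold changes of EIF4H, for a relative of eIF4B, and eif4ba were -0.04 (SE 0.30) and 0.08 (SE 0.60). The genes of the eIF4G relatives lay on both sides of 0. For eIF4G2, which lacks the eIF4E-binding part of eIF4G, the gene ENSDARG00000057167 was at 222, 204 and 148 CPM against 239, 309 and 293 CPM in controls, and the gene ENSDARG00000020377 was at 72.2, 56.8 and 129 CPM against 58.2, 53.5 and 59.0 CPM. Neither passed (adjusted p = 0.0763 and 0.217, edgeR), but ENSDARG00000057167 did as lower with a filter of 10 CPM (0.0439). EIF4E2, eif4e2rs1, EIF4E3, EIF4A2 and both EIF4G3 genes did not pass either, with log2 fold changes between -0.78 and 0.98. The EIF4G3 gene ENSDARG00000074331 passed as lower with DESeq2 (adjusted p = 0.0305).

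Of the 5 tested genes of eIF5, eIF5A, eIF5B and eIF6, 4 were lower and none higher (median log2 fold change -0.96). The shares among all genes tested were 9.92% lower and 13.0% higher. Among those with a mean of at least 50 CPM, where all 5 lay, they were 31.4% and 22.6%. EIF5 (ENSDARG00000003681), which makes eIF2 hydrolyse its GTP at the start codon, was at 240.0, 239.9 and 182 CPM in blf-/-;drl 4KO libraries, against 645, 733 and 701 CPM in the controls (log2 fold change -1.65, SE 0.17, adjusted p = 5.28e-05, edgeR), 3.14-fold lower in mean level. The lowest control was at 2.69 times the highest blf-/-;drl 4KO library. eif5b (ENSDARG00000016548), for the GTPase of subunit joining, was at 195, 221 and 173 CPM against 453, 489 and 508 CPM (log2 fold change -1.30, SE 0.17, adjusted p = 0.000289, edgeR). The 2 genes of eIF5A, a factor that carries the modified lysine hypusine and helps ribosomes through difficult stretches, were both lower. eif5a (ENSDARG00000017235) was at 1134, 1149 and 1039.9 CPM against 1937, 2354 and 2196 CPM in controls (log2 fold change -0.96, SE 0.13, adjusted p = 0.000355, edgeR). EIF5A2 (ENSDARG00000056186) was at 1404, 1480.0 and 1336 CPM against 2022, 2480.1 and 2738 CPM (log2 fold change -0.78, SE 0.14, adjusted p = 0.00233, edgeR). DHPS and dohh, for the enzymes that make hypusine, also fell, with log2 fold changes of -1.90 (SE 0.48) and -1.23 (SE 0.25). EIF6, which keeps the large subunit from joining too early, was at 367, 304 and 306 CPM against 417, 415 and 490.0 CPM in controls and missed the threshold (-0.44, SE 0.16, adjusted p = 0.0767, edgeR). It passed as lower with a filter of 10 CPM (adjusted p = 0.0407, edgeR).

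**Figure D3:**
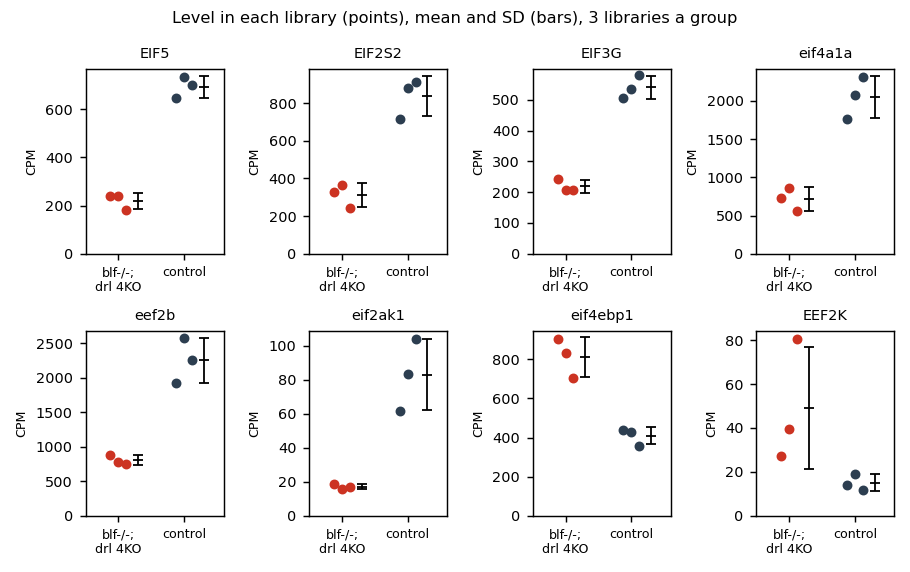
CPM (vertical axes, from 0) in each blf-/-;drl 4KO library and each control library of 8 genes, as points, with the mean and SD beside them (n = 3 each). EIF5, EIF2S2, EIF3G, eif4a1a, eef2b and eif2ak1 were lower in every blf-/-;drl 4KO library, and eif4ebp1 and EEF2K were higher in every one.

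Of 14 elongation factor genes 9 could be tested, of which 5 fell and none rose (median log2 fold change -0.73). Among all genes tested 9.92% fell and 13.0% rose. Of those with a mean of at least 50 CPM 31.4% fell and 22.6% rose, and the class was not matched for level. eef2b (ENSDARG00000100371), for the GTPase that moves the ribosome along by 1 codon, had the smallest p of all members. It was at 883, 775 and 756 CPM in blf-/-;drl 4KO libraries, against 1924, 2579 and 2257 CPM in the controls (log2 fold change -1.49, SE 0.15, adjusted p = 3.91e-05, edgeR), 2.80-fold lower in mean level. Its copy EEF2 was at 29.6, 25.6 and 18.2 CPM in blf-/-;drl 4KO and 26.1, 24.6 and 20.1 CPM in control libraries. Another copy, eef2a.1, was at 41.5, 64.6 and 32.7 CPM in blf-/-;drl 4KO and 22.5, 15.2 and 51.0 CPM in control libraries. Both overlapped between the groups and did not pass (adjusted p = 0.946 and 0.373, edgeR). eef1a1l1 (ENSDARG00000020850), for eEF1A, which delivers aminoacyl-tRNA, took 30.9% to 31.5% of the reads of all members in the blf-/-;drl 4KO libraries and 27.9% to 29.3% in the controls. It was at 7303, 7243 and 6658 CPM against 9955, 12832 and 12374 CPM (log2 fold change -0.73, SE 0.12, adjusted p = 0.00126, edgeR). The complex that recharges eEF1A with GTP was represented by 4 genes. eef1da (ENSDARG00000102291) was at 228, 166 and 158 CPM in blf-/-;drl 4KO libraries and 404, 392 and 458 CPM in the controls (log2 fold change -1.18, SE 0.19, adjusted p = 0.00128, edgeR), and EEF1B2 and EEF1G fell by 0.97 (SE 0.19) and 0.73 (SE 0.14) on the log2 scale. Its other delta gene, EEF1D (ENSDARG00000030053), was at 200.2, 151 and 109.9 CPM against 158, 147 and 160.3 CPM, with overlapping groups (-0.01, SE 0.24). EEF1E1, for a small protein of the tRNA synthetase complex with an eEF1-like fold, was at 5.23, 10.1 and 2.38 CPM against 13.0, 19.5 and 13.9 CPM and did not pass (adjusted p = 0.207, edgeR).

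Some elongation genes had almost no reads in these cells. Both genes listed as EEF1A1, eef1a2, a form known from nerve and muscle in mammals, eef2a.2 and eef1a1l3 were left out by the filter, and eef1a1l3 had 0 reads in all 6 libraries. eef2a.2 had 4, 1 and 1 reads in blf-/-;drl 4KO replicates 1, 2 and 3, against 21, 3 and 45 reads in control replicates 1, 2 and 3, too few in most libraries for a test. Of the other members without a test, a second EIF3B gene had 35 reads in all, EIF4E1B 82 and eif2ak2 58. For EIF4E1B, 76 of its reads were in 1 blf-/-;drl 4KO library, and for 1 EEF1A1 gene (ENSDARG00000039502) 99 of 127 reads were in another.

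Genes for regulators of these factors went both ways. Of 12 tested genes 2 fell, 2 rose and 8 did not pass, beside 9.92% falls and 13.0% rises among all genes tested. Counts this small do not set the class apart from all genes. Of the 12, 6 had fold changes below 0 and 6 above. Their median log2 fold change of -0.07 was not stable, at -0.41 to -0.08 with 1 library left out, -0.60 with a filter of 10 CPM and 0.27 with library totals. eif2ak1 (ENSDARG00000093182), for the heme-sensing kinase of eIF2, was at 18.7, 15.8 and 16.8 CPM in blf-/-;drl 4KO libraries, against 61.7, 83.5 and 104 CPM in the controls (log2 fold change -2.28, SE 0.33, adjusted p = 0.000664, edgeR), 4.85-fold lower in mean level. The lowest control was at 3.30 times the highest blf-/-;drl 4KO library. Relative to the reads of the 2 EIF2S1 genes of its substrate in the same library, its reads were 0.0314 ± 0.00601 in blf-/-;drl 4KO and 0.0902 ± 0.0213 in control libraries (SD, n = 3 each), a ratio that does not depend on scaling between libraries. The erythroid markers fell alongside it, as given above. Of the other eIF2 kinases, EIF2AK3, for the kinase of endoplasmic reticulum stress, was at 18.9, 4.75 and 3.69 CPM in blf-/-;drl 4KO libraries and 12.3, 3.55 and 1.18 CPM in the controls, and EIF2AK4, for the kinase of amino acid shortage, was at 3.52, 3.0 and 3.43 CPM against 1.70, 6.18 and 1.73 CPM. Neither passed (adjusted p = 0.671 and 0.979, edgeR), and eif2ak2, for the kinase of double-stranded RNA, was left out by the filter.

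The 4E-BPs, which hold eIF4E away from eIF4G, went in different directions. eif4ebp1 (ENSDARG00000043608) was at 906, 831 and 704 CPM in blf-/-;drl 4KO libraries, against 438, 430.0 and 358 CPM in the controls (log2 fold change 0.99, SE 0.16, adjusted p = 0.00118, edgeR), 1.99-fold higher in mean level, with no overlap. EIF4EBP3 (ENSDARG00000041607) was at 145, 129 and 139.9 CPM against 197, 219 and 221 CPM (log2 fold change -0.62, SE 0.18, adjusted p = 0.0301, edgeR). Its call held when control replicate 1 was left out and not without any other library (adjusted p = 0.0772 to 0.117, edgeR), nor with library totals (0.218). The gene listed in small letters as eif4ebp3 (ENSDARG00000054916) was at 23.5, 13.0 and 14.1 CPM against 23.3, 41.5 and 55.1 CPM, and EIF4EBP2 was at 159, 253 and 129 CPM against 146, 130.5 and 154 CPM, neither past the threshold. ENSDARG00000054916 had a log2 fold change of -1.24 (SE 0.47, adjusted p = 0.0788, edgeR). It passed as lower with DESeq2 (0.0186) and without control replicate 1 (0.0485, edgeR). Per read of the 4 eIF4E1 genes in the same library there were 1.69, 1.57 and 1.42 reads of eif4ebp1 in blf-/-;drl 4KO replicates 1, 2 and 3, against 0.621, 0.513 and 0.461 in control replicates 1, 2 and 3. These read ratios are not corrected for gene length, so they bear only on the comparison between libraries, where the groups did not overlap. That adds little to the values of the single genes. In every blf-/-;drl 4KO library eif4ebp1 already lay above all controls, and eif4e1c and eif4eb below them.

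EEF2K (ENSDARG00000035835), for the kinase that inhibits eEF2, was at 27.3, 39.5 and 80.6 CPM in blf-/-;drl 4KO libraries, against 14.1, 19.1 and 11.6 CPM in the controls (log2 fold change 1.71, SE 0.48, adjusted p = 0.0249, edgeR). Replicate 3 was well above the other blf-/-;drl 4KO libraries, and the groups did not overlap. The call was lost without that library (log2 fold change 1.19, adjusted p = 0.137), and without control replicates 1, 2 or 3 (0.0906, 0.0544 and 0.0916, edgeR). Among methyltransferases of eEF1A, EEF1AKMT1 averaged 19.0 CPM in blf-/-;drl 4KO and 41.4 CPM in control cells and missed the threshold (adjusted p = 0.0771, edgeR), passing with DESeq2 (0.0125), and EEF1AKMT2 and EEF1AKMT4 were at -0.93 (SE 0.74) and 0.21 (SE 0.47). eif4enif1, for a protein that carries eIF4E into the nucleus and to sites of mRNA decay, was at a mean of 5.34 against 6.11 CPM.

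Many factors have more than 1 gene in the zebrafish, so the split of reads between copies was compared too. For 18 sets of copies, the share of the set's reads that went to the copy with the most reads was computed within each library, which makes it free of scaling between libraries. In 10 sets the shares of the 2 groups did not overlap, 4 with a higher share in the blf-/-;drl 4KO libraries and 6 with a lower one. For all 524 sets of IDs under a single symbol with at least 100 reads in every library, the share without overlap was 32.1%, although those sets were formed by symbol alone. With 3 libraries a group the exact two-sided permutation test cannot go below p = 0.1, which each of the 10 sets reached (0.18 after Benjamini-Hochberg adjustment over the 18 sets), so no set passed.

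The widest differences were in eEF1D, eIF2 alpha and the 4E-BPs. eef1da took 53.3%, 52.4% and 59.0% of eEF1D reads in the blf-/-;drl 4KO libraries, against 71.9%, 72.8% and 74.1% in the controls. The rest of the reads of this set went to its partner EEF1D. The EIF2S1 gene ENSDARG00000052178 took 49.5%, 47.0% and 48.0% of eIF2 alpha reads in the blf-/-;drl 4KO libraries, against 58.6%, 67.9% and 67.3% in the controls. eif4ebp1 took 73.4%, 67.8% and 71.3% of 4E-BP reads in the blf-/-;drl 4KO libraries, against 54.4%, 52.4% and 45.4% in the controls. In all 3 sets the groups were well apart. EIF1 took 77.7%, 75.1% and 74.3% of the eIF1 reads in the blf-/-;drl 4KO libraries, against 60.4%, 63.5% and 63.1% in the controls. For eIF3h, the gene ENSDARG00000102452 took 94.6%, 90.7% and 90.0% against 81.4%, 81.8% and 81.0%, and for eIF4E1, eif4e1c took 69.0%, 59.2% and 73.9% against 58.8%, 54.2% and 58.1%. In the eIF4E1 set the gap was narrow, since the lowest blf-/-;drl 4KO share was close to the highest control share. eef2b took 92.5%, 89.6% and 93.7% of eEF2 reads in the blf-/-;drl 4KO libraries, against 97.5%, 98.5% and 96.8% in the controls, and eif4a1a took 75.5%, 82.0% and 74.0% of eIF4A reads against 84.3%, 84.2% and 86.5%. The EIF4G2 gene ENSDARG00000057167 took 75.4%, 78.3% and 53.4% of its set's reads in the blf-/-;drl 4KO libraries, against 80.4%, 85.3% and 83.2% in the controls. The EIF4G3 gene ENSDARG00000074331 took 86.1%, 66.0% and 76.9% against 87.1%, 94.7% and 92.2%, with the closest values of the groups near each other. The sets of eIF1A, eIF3b, eIF3e, eIF3j, eIF4B, eIF4E2, eIF5A and eEF1A overlapped between the groups. How the authors' counting divided reads between near-identical copies is not known here, which bears on every share.

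**Figure D4:**
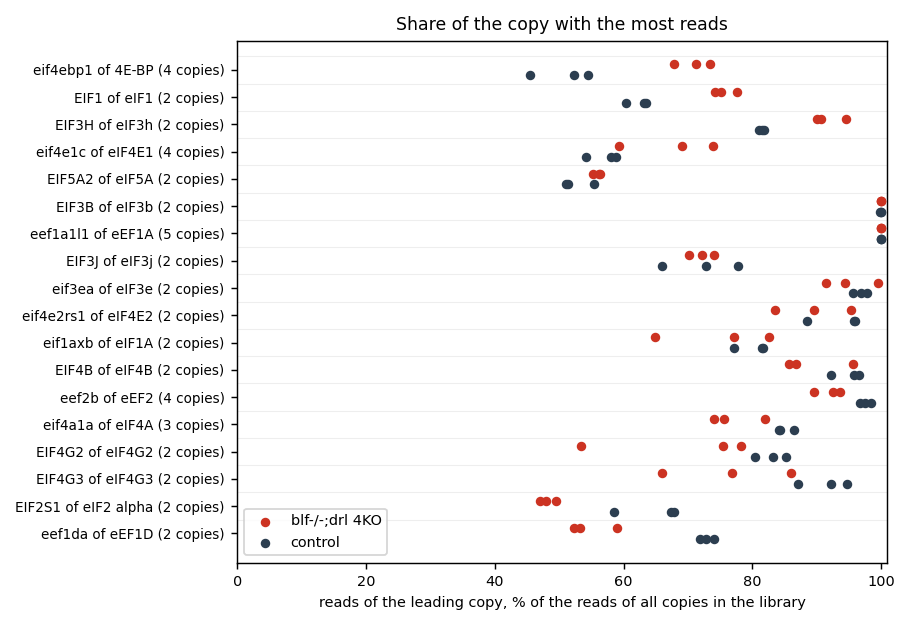
Share of a factor's reads taken by its copy with the most reads (horizontal axis, percent of the reads of all copies in that library), with 3 blf-/-;drl 4KO libraries drawn above 3 control libraries in each of 18 sets. The red and dark points of eif4ebp1, EIF1 and EIF3H at the top and of eef1da and EIF2S1 at the bottom do not overlap, while those of EIF3J and EIF5A2 do.

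Genes that act beside these factors but lack the prefix were taken from lists of recycling, signalling, stress and mitochondrial translation genes. In the list of recycling, termination and poly(A) binding, 9 of 17 tested genes fell and none rose (median log2 fold change -0.72), beside 9.92% and 13.0% of all genes tested. The list is broader than its name, and DHPS, dohh, TPT1 and pdcd4a are among its genes that fell. Its gene gspt1 was higher in every blf-/-;drl 4KO library than in any control but did not pass (log2 fold change 0.66, SE 0.71, adjusted p = 0.544, edgeR). ABCE1 (ENSDARG00000007216), which splits ribosomes after termination, was at 281, 315 and 279 CPM in blf-/-;drl 4KO libraries, against 795, 932 and 1127 CPM in the controls (log2 fold change -1.71, SE 0.17, adjusted p = 3.81e-05, edgeR). pabpc1a (ENSDARG00000017219), for the poly(A)-binding protein that contacts eIF4G, was at 281, 279 and 259 CPM against 633, 737 and 695 CPM (log2 fold change -1.33, SE 0.15, adjusted p = 0.000102, edgeR), and its copy pabpc1b (ENSDARG00000021140) was at 29.7, 21.7 and 11.1 CPM against 102, 125 and 86.2 CPM (log2 fold change -2.32, SE 0.38, adjusted p = 0.00143, edgeR). These 3 genes, named for the smallest p of the list, lay below the controls without overlap. So did 19.8% of all genes tested. The termination factor gene ETF1, the reinitiation factor gene DENR, the tumor protein gene TPT1 and pdcd4a, for an inhibitor of eIF4A, had log2 fold changes of -0.93, -0.88, -0.72 and -1.03. The hypusine enzyme gene DHPS was at adjusted p = 0.0574, 0.0526 and 0.0564 without control replicates 2 and 3 and blf-/-;drl 4KO replicate 1, and DENR at 0.0519 without control replicate 2 (edgeR).

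The mTOR and MAP kinase list holds some genes that act upstream of the 4E-BPs and eIF4E. It also holds the genes listed as RICTOR and the S6 kinase genes rps6kb1a and rps6kb1b, which are not upstream of them. Of its 15 tested genes 2 fell, none rose and 13 did not pass, beside 9.92% and 13.0% of all genes tested. MTOR itself was at 49.5, 43.3 and 62.2 CPM in blf-/-;drl 4KO libraries, against 65.1, 68.6 and 52.5 CPM in the controls, with overlapping groups (-0.26, SE 0.29). The genes that fell were 1 of 2 listed as TSC1 (ENSDARG00000057918), for a brake on mTOR, at 2.82, 7.07 and 3.37 CPM against 42.4, 42.0 and 15.3 CPM (log2 fold change -2.91, SE 0.64, adjusted p = 0.00772, edgeR), and 1 of 2 listed as MKNK2 (ENSDARG00000015164), for a kinase of eIF4E, at 14.2, 14.5 and 17.0 CPM against 49.0, 46.2 and 62.5 CPM (log2 fold change -1.79, SE 0.37, adjusted p = 0.00526, edgeR). The other TSC1 gene was at a log2 fold change of 0.00 (SE 0.57). The other MKNK2 gene (ENSDARG00000011373) was at 5.38, 6.06 and 4.62 CPM in blf-/-;drl 4KO libraries, against 0.592, 1.73 and 0.637 CPM in the controls, and lay above them in every library. It did not pass here (log2 fold change 2.43, SE 1.01, adjusted p = 0.11, edgeR) but did as higher with DESeq2 (0.0309) and limma-voom (0.0416).

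In the list of genes downstream of eIF2 phosphorylation 3 of 11 rose, none fell and 8 did not pass, beside 13.0% and 9.92% of all genes tested. This list, too, is broader than its name. It also holds GCN1 and PPP1CB, which are not targets downstream of eIF2 phosphorylation (log2 fold changes -0.86 and 0.33). The median log2 fold change of the list was 0.33, the value of PPP1CB. It was 0.07 without control replicate 1 and 0.54 without control replicate 3. DDIT3 (ENSDARG00000059836), for the stress transcription factor CHOP, was at 33.8, 54.5 and 40.4 CPM in blf-/-;drl 4KO libraries, against 3.18, 12.6 and 6.18 CPM in the controls (log2 fold change 2.55, SE 0.56, adjusted p = 0.00789, edgeR). ATF3 (ENSDARG00000007823), for a related factor, was at 186, 245 and 205 CPM against 70.5, 42.6 and 15.6 CPM (log2 fold change 2.31, SE 0.43, adjusted p = 0.00315, edgeR). TRIB3 (ENSDARG00000016200), for a pseudokinase, was at 75.5, 91.7 and 96.9 CPM against 42.9, 19.7 and 20.0 CPM (log2 fold change 1.68, SE 0.36, adjusted p = 0.00724, edgeR). All 3, which are the genes of the list that passed, lay above the controls without overlap. So did 22.7% of all genes tested. The genes of ATF4, whose protein is made when eIF2 is phosphorylated, did not pass: atf4a was at 74.6, 122 and 102 CPM in blf-/-;drl 4KO libraries and 102, 157 and 152 CPM in the controls, and atf4b at 171, 238 and 256 CPM against 266, 311 and 358 CPM. Their log2 fold changes were -0.46 (SE 0.26) and -0.49 (SE 0.20), with adjusted p = 0.232 and 0.107 (edgeR). atf4b was lower in every blf-/-;drl 4KO library than in any control. Also in this list, ASNS, cebpg and ppp1r15a did not pass, at 0.79 (SE 0.61), 1.02 (SE 0.39) and -0.33 (SE 0.31) on the log2 scale. ASNS, and narrowly cebpg, were higher in every blf-/-;drl 4KO library than in any control. cebpg passed as higher with library totals (adjusted p = 0.0242, edgeR) and with a filter of 10 CPM (0.0464). CHAC1 had 0 reads in every library. Myeloid, endothelial and epidermal markers rose in the same libraries, by the values given above, and their part in these rises was not tested.

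Among factors of the separate translation system of mitochondria, 2 of 10 tested genes fell and none rose (median log2 fold change -0.59), beside 9.92% and 13.0% of all genes tested. GUF1 (ENSDARG00000029088), for an elongation factor that acts on stalled ribosomes, was at 15.1, 10.1 and 10.8 CPM in blf-/-;drl 4KO libraries, against 51.0, 29.4 and 59.4 CPM in the controls (log2 fold change -1.96, SE 0.44, adjusted p = 0.00835, edgeR). MTIF2 (ENSDARG00000063213), for the mitochondrial counterpart of eIF2 and eIF5B, was at 36.5, 8.77 and 13.1 CPM against 53.6, 74.6 and 63.9 CPM (log2 fold change -1.72, SE 0.50, adjusted p = 0.0309, edgeR). Its call held without blf-/-;drl 4KO replicate 1 and was lost without any other library (adjusted p = 0.0573 to 0.125, edgeR) and with library totals (0.0663). TUFM, for the mitochondrial counterpart of eEF1A, was at a log2 fold change of -0.39 (SE 0.23, adjusted p = 0.269, edgeR).

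**Figure D5:**
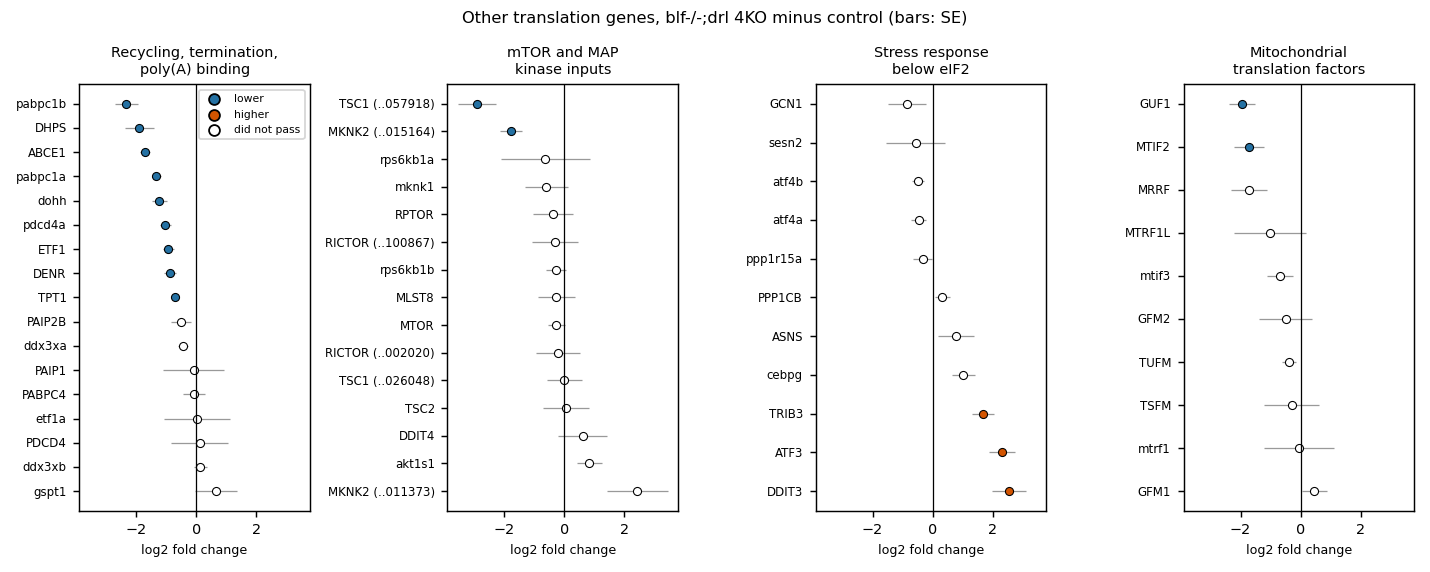
Log2 fold change (horizontal axes, blf-/-;drl 4KO minus control, bars the SE) of the tested genes of 4 lists outside the prefix rule. In the list of recycling, termination and poly(A) binding, which also holds DHPS, dohh, TPT1 and pdcd4a, 9 of 17 genes were lower. In the stress list 3 of 11 were higher. Among all genes tested 9.92% were lower and 13.0% higher.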

How the data were processed

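Each of the 6 files, grouped by sample title, holds the authors' raw counts for 1 library. Per the submitters' processing notes, HISAT2 2.2.1 and featureCounts 1.6.0 were used with GRCz11. Strand setting, annotation release and handling of multi-gene reads: not given in the sources used here. Values of close copies, overlapping genes and antisense partners are therefore uncertain. A name table matched 29201 of 32520 IDs. Of the member symbols 61 are in human-style capitals, and 14 IDs share a symbol with another member. No coordinates or sequences are printed, as no annotation of this build was used here.

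The whole count table was fitted with edgeR 4.0.16 (R 4.3.3; filterByExpr, TMM, robust quasi-likelihood F test) as blf-/-;drl 4KO minus control, without covariates. Adjusted p-values are Benjamini-Hochberg over 14517 genes, called at 0.05. The SE is the log2 fold change over the square root of F, and the biological coefficient of variation was 66.5%. The steps were tested on simulated counts. Replicates differed beyond sampling noise, with chi-square values per degree of freedom between 31.8 and 68.0. Named genes are, by class, the 3 of smallest p, the one with most reads, calls against the class and copies of a factor that differ in call, plus up to 3 of smallest p among the calls of each pathway list; others were named after their values were seen. Members and lists were chosen with earlier results of these data known, and the read ratios of a regulator to its target were added after the data were seen. List genes were matched by symbol, in capitals where needed and then without a copy suffix, or by an older name. Also run were RLE factors, scaling to library totals, factors without globin and mitochondrial genes, DESeq2 1.42.0, limma-voom (limma 3.58.1), other filters, a 0.01 threshold, a replicate block and each library left out.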

Additional observations from a re-analysis of the deposited data

How the results depend on the processing

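The count of lower translation factor genes was 41 and lay between 31 (no filter) and 46 (DESeq2) over the alternatives run, and between 33 and 41 when 1 library was left out. The count of higher genes was 2, became 1 with limma-voom, 1 at a threshold of 0.01 and 1 with the replicate block, and ran from 1 to 2 when 1 library was left out. EEF2K was the gene lost in these cases (adjusted p = 0.0819 with limma-voom and 0.0606 in edgeR with the replicate block). With library totals 35 fell and 3 rose, EIF1 being added. Of the 43 calls, 31 held in all alternatives at the 0.05 threshold, and no call changed direction. Scaling to library totals moved the median of all genes by 0.31 on the log2 scale. The median of the members relative to it was -1.01 there and -1.02 with TMM, and -0.64 with no filter, where 30020 genes were tested. Under library totals the class medians of the regulators and of the mTOR and MAP kinase list changed sign (0.27 and 0.04). The sets of copies without overlap numbered 10 to 12 with 1 library left out, and 10 with the log2 ratio of the copies. Leaving out a library cannot lower this count, and the ratio nearly keeps the order of the shares. Neither therefore bears on how stable the count is.

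The replicate numbers showed no sign of pairing the libraries. Deviations of same-numbered libraries correlated between -0.0408 and 0.00355, and 0 of 3 correlated best with its own number. With 3 libraries a group and all tested genes weighed alike, this check cannot exclude a pairing. With the replicate block 38 genes fell and 1 rose. A change that was not called is not shown to be absent.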
